A study of Rattus norvegicus with 22 samples.

Results

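Lysosomal hydrolases and lysosomal membrane proteins were followed by RNA sequencing in rat microglia, the resident macrophages of the brain. The genes came from a list of 36 symbols that names glycosidases, sulfatases, lipid-degrading enzymes, sterol carriers, membrane proteins and the transcription factor Tfeb, and that leaves out the cathepsins. Of the 36, 32 have a row in the table of 17284 genes, and Naglu, Ids, Sgsh and Hgsnat are not analysed here. Expression is in FPKM, fragment counts divided by transcript length and by the size of the library, so that levels of different genes can be compared per length. All 32 genes passed the filter of at least 1 FPKM in at least 3 samples, as did 9691 genes in all, and none of the 32 was listed at 0 in any library.

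The 22 samples are of CD11b-panned cells from Sprague-Dawley rat brains at postnatal day 21, taken without the cerebellum. TIC cells (n = 6) spent 8 days in a serum-free medium called TIC, whose composition the labels do not give, and FCS 1d (n = 5), FCS 3d (n = 4) and FCS 5d (n = 4) cells were cultured as long, with 10% fetal calf serum present for the last 1, 3 or 5 days. Acute cells (n = 3) were not cultured. CD11b is also carried by granulocytes and other myeloid cells, so the panning step does not by itself separate them from microglia. The samples are described as biological replicates, without a statement of which share an animal or a preparation. P-values measure the spread between these samples.

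Lysosomes are acidic organelles in which cells degrade what they take up or recycle. Soluble hydrolases are tagged with mannose 6-phosphate in the Golgi and delivered to lysosomes, where each enzyme removes a particular sugar, sulfate, acyl chain or peptide, and saposins and the GM2 activator present lipids to some of these enzymes. The membrane is lined with the glycoproteins LAMP1, LAMP2, LIMP-2 (Scarb2) and CD63, and it carries sterol exporters and ion channels. In microglia this system digests myelin, dying cells and synaptic material, and inherited loss of many of these proteins causes lysosomal storage disease of the brain. The factors TFEB, TFE3 and MITF bind E-box motifs near the start sites of many lysosomal genes.

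That motif can be seen in the promoters of several of the genes. Promoter sequences were taken from RefSeq on rat build GRCr8, not the build of the expression data, and cover 250 bases before to 50 bases after each start. A promoter was matched for 26 of the 32 genes. Psap and Arsb, the genes that rose in serum, were among those without one. The core letters CACGTG were present in 8 of these 26 promoters (30.8%), those of Cln3, Galc, Cd63, Glb1, Gaa, Mcoln1, Idua and Lamp1, compared with 6.42% of 33469 rat promoters of the same length. The longer form TCACGTGA, which contains CACGTG, was present in Cln3, Galc, Mcoln1 and Lamp1 (4 of 26, 15.4%), compared with 0.777% of all promoters. Both motifs read the same on either strand. The stretches upstream of 5 starts are printed because they hold the motifs of 3 genes that were lower in TIC than in Acute cells, Lamp1 with 5 copies of CACGTG and Gaa and Glb1 with 1 each, and of 2 that were not called in that comparison, Cln3 with 2 copies and Galc with 1. Capitals mark the motif, in the longer form where that is present.
Lamp1, chr16:83075064-83075253, minus strand: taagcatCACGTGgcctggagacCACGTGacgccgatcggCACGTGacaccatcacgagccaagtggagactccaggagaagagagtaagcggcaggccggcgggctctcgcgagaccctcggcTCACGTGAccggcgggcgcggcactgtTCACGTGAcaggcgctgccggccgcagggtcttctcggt
Cln3, chr1:190597930-190598009, minus strand: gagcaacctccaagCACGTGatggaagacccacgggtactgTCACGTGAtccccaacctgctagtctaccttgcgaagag
Galc, chr6:123245560-123245639, minus strand: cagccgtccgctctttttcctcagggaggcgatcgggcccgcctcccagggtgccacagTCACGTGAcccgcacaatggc
Gaa, chr10:105028275-105028354, plus strand: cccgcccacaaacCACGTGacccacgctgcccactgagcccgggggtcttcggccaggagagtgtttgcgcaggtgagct
Glb1, chr8:122963608-122963717, plus strand: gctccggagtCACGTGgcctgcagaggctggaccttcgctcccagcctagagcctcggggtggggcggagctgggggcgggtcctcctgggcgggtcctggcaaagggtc
In Lamp1 the copies began 183, 167, 150, 65 and 38 bases before the start. A match describes the letters only and says nothing of whether a factor is bound.

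Libraries differed within groups as well as between them, and these differences touch the lysosomal genes. Summed FPKM lay between 564301 and 696703 in 6 libraries (TIC 5, TIC 6, FCS 1d 5 and Acute 1 to 3) and between 335470 and 434577 in the other 16. All Acute libraries were thus in the high set and all FCS 3d and FCS 5d libraries in the low set. Between Acute and those groups this division cannot be told apart from the group. Tested genes listed at 0 numbered 934 to 1295 in 10 libraries and 353 to 672 in the other 12, and both kinds occur in every group. In TIC 5 and TIC 6 compared with the other 4 TIC libraries, 30 of the 32 lysosomal genes were higher and their median difference was 0.77 on the log2 scale, when 76.0% of all tested genes were higher with a median of 0.50. FCS 1d 5 compared with the other 4 FCS 1d libraries had 31 of 32 higher with a median of 0.97, when 69.3% of all tested genes were higher with a median of 0.39. The labels mention 2 batches of library preparation, with each condition in both, without saying which library was in which. Microglial markers, 8 genes in the table, summed to 913 to 1740 FPKM in TIC cells and 9340 to 10300 FPKM in Acute cells, and were detected in every group. The 8 did not move alike. In TIC relative to Acute cells 6 were called lower, with log2 changes from -7.19 (Cx3cr1) to -2.06 (Aif1). Itgam was called higher (1.78) and Ptprc was not called (-0.09). Among all tested genes 27.7% were lower and 14.7% higher.

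Acute libraries also held transcripts of other cells. Neutrophil markers (8 listed) summed to 0 to 5.34 FPKM in TIC cells, where 6 of them were at 0 throughout, and to 1780 to 16100 FPKM in Acute cells. Eosinophil markers summed to 0 in TIC cells and 432 to 3740 FPKM in Acute cells, red cell markers to 0 in TIC cells and 696 to 1990 FPKM in Acute cells, and lymphocyte markers to 0 to 1.37 FPKM in TIC cells and 70.6 to 212 FPKM in Acute cells. Oligodendrocyte markers summed to 4.26 to 50.9 FPKM in TIC cells and 55.5 to 156 FPKM in Acute cells, and astrocyte markers to 0.602 to 5.4 FPKM in TIC cells and 19.9 to 180 FPKM in Acute cells. Sums for neurons (4.23 to 18.1 FPKM in TIC cells, 1.7 to 4.56 FPKM in Acute cells), endothelial and mural cells (1.77 to 3.91 FPKM in TIC cells, 6.11 to 21.3 FPKM in Acute cells) and fibroblasts (0 to 1.36 FPKM in TIC cells, 0.181 to 1.76 FPKM in Acute cells) were low. Other than the fibroblast sums, which overlapped between TIC and Acute cells, these sums move with every comparison of cultured with Acute cells. Some also differed between serum and TIC cells. Neutrophil sums were 7.33 to 34.0 FPKM in FCS 1d, 5.19 to 53.4 in FCS 3d and 1.59 to 9.83 in FCS 5d cells. In the same order, astrocyte sums were 7.75 to 19.4, 12.0 to 28.6 and 8.21 to 16.7 FPKM. Neuron sums were 0 to 4.38, 0 to 0.788 and 0 to 0.623 FPKM, and eosinophil and red cell sums stayed at 0. The part of these sums in any comparison was not tested. In such bulk samples, fewer cells of a type and less RNA per cell cannot be told apart.

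The lysosomal genes made up a larger share of all FPKM in cultured cells than in Acute cells. Their summed share was 2.08 ± 0.0367% in TIC, 2.31 ± 0.099% in FCS 1d, 1.89 ± 0.0695% in FCS 3d, 2.0 ± 0.113% in FCS 5d and 1.53 ± 0.205% in Acute cells (SD), and the highest Acute library (1.76%) lay below the lowest cultured one (1.79%). A handful of abundant transcripts carried most of it. Cd63, Grn, Psap, Cd68 and Npc2 were the 5 most abundant in TIC cells and held 65.7 to 69.7% of the lysosomal FPKM of a library. The 5 most abundant in Acute cells, Npc2, Lamp2, Laptm5, Lamp1 and Psap, held 52.4 to 58.9%. In FCS 1d, FCS 3d and FCS 5d cells Psap was first, and in FCS 5d cells Laptm5 stood among the 5 in place of Cd68.

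**Figure D1:**
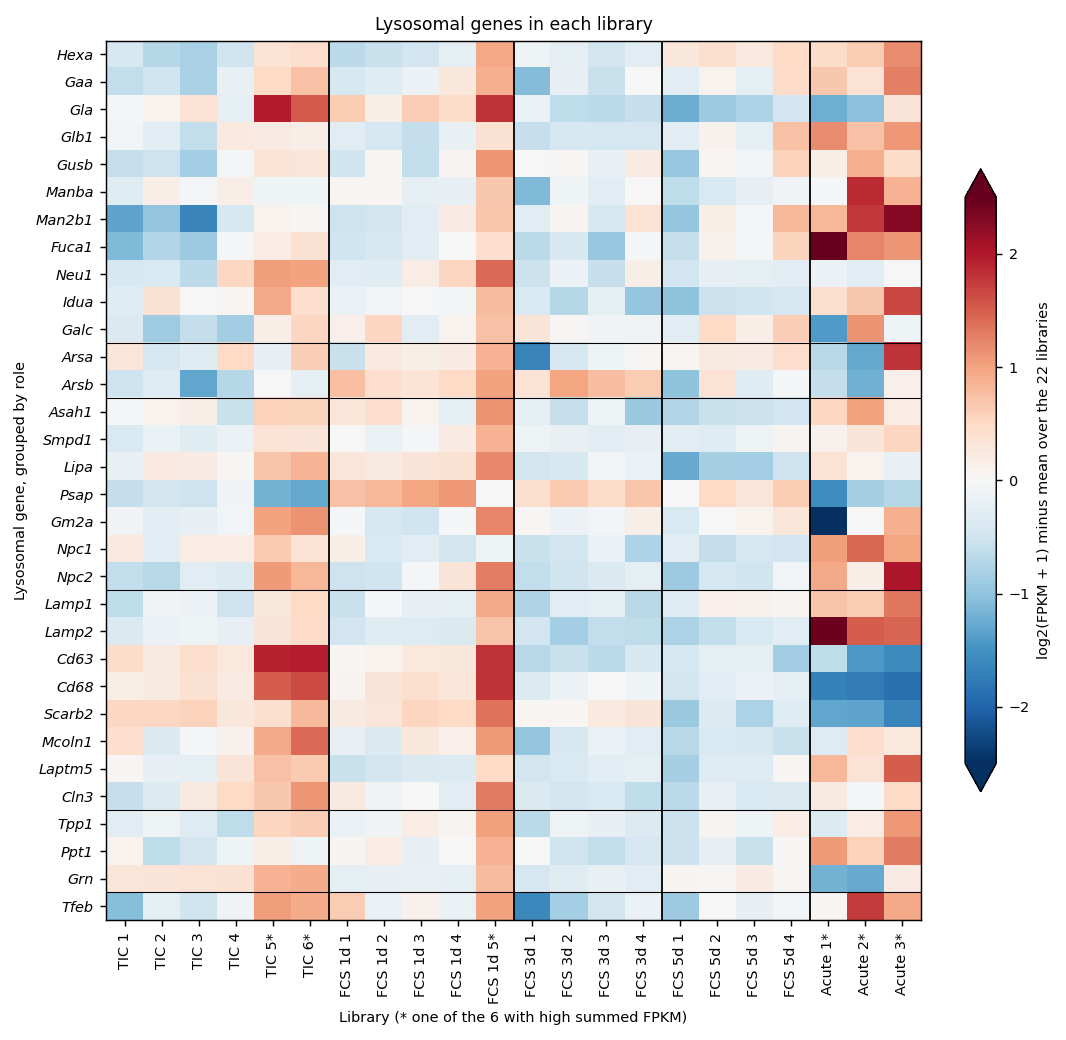
Heat map of the 32 lysosomal genes (rows, grouped by role) in the 22 libraries (columns), coloured by log2(FPKM + 1) minus the gene's mean over all libraries; stars mark the 6 libraries with high summed FPKM. TIC 5, TIC 6 and FCS 1d 5 are redder than the rest of their groups for most genes, Psap is bluer there, and Acute libraries are blue for Cd68 and Scarb2 and red for Lamp2 and Fuca1.

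Culture in serum-free medium, compared with fresh isolation, went with lower transcripts of many glycosidases and of LAMP1 and LAMP2 and with higher Cd68, Cd63, Scarb2, Grn and Gla. Of the 32 genes, 5 rose and 10 fell in TIC relative to Acute cells at a Benjamini-Hochberg adjusted p under 0.05 (limma, adjusted over all 9691 genes). That is 46.9% of the lysosomal genes, when 42.4% of all tested genes passed (14.7% higher, 27.7% lower), so the share called is close to the background. The median log2 change was -0.41 for the lysosomal genes and -0.29 for all tested genes. The split depended on scaling. It was 7 higher and 8 lower after median-of-ratios rescaling, 8 and 8 after quantile normalization, and 9 and 7 with all libraries set to the same summed FPKM, where the median of all tested genes was -0.0013, 0.0035 and 0.077. Without TIC 5, TIC 6 and FCS 1d 5 it was 5 higher and 17 lower, when 1235 of all tested genes were higher and 3298 lower (46.8% called).

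Glycosidases, which strip sugars from glycoproteins and glycolipids, gave 6 of the 10 falls among 11 genes, with 1 rise. Among all tested genes 27.7% were lower and 14.7% higher. Man2b1 (alpha-mannosidase) had 23.2 to 79.8 (median 46.7) FPKM in TIC cells, against 133, 255 and 364 FPKM in Acute cells (log2 change -2.32 ± 0.42, adjusted p = 0.000107). Fuca1 (alpha-L-fucosidase) had 92.0 to 257 (median 157) FPKM in TIC cells, against 1201, 462 and 425 FPKM in Acute cells (log2 change -2.0 ± 0.37, adjusted p = 0.000132). For both genes the groups did not overlap, and Acute 1 was the lowest Acute library for Man2b1 and the highest for Fuca1. Glb1, the beta-galactosidase whose promoter is printed above, had 42.5 to 78.7 (median 68.5) FPKM in TIC cells, against 150.1, 109.7 and 140.3 FPKM in Acute cells (log2 change -1.05 ± 0.26, adjusted p = 0.00236). Hexa, the alpha subunit of beta-hexosaminidase, had 68.9 to 166 (median 89.5) FPKM in TIC cells, against 169, 190.3 and 277 FPKM in Acute cells (log2 change -1.03 ± 0.32, adjusted p = 0.0127). The groups did not overlap for Glb1 or Hexa, though for Hexa the highest TIC library came close to the lowest Acute one. Beta-mannosidase (Manba) fell by 0.94 on the log2 scale (adjusted p = 0.0233) and acid alpha-glucosidase (Gaa), which degrades glycogen, by 0.91 (adjusted p = 0.0428). Gla, the alpha-galactosidase that degrades globotriaosylceramide, went the other way, with 21.3 to 104 (median 30.2) FPKM in TIC cells, against 10.3, 12.0 and 32.0 FPKM in Acute cells (log2 change 1.26 ± 0.44, adjusted p = 0.0251). Acute 3 lay within the TIC range for Gla and TIC 5 and TIC 6 held the high values, and without the cultured libraries of high summed FPKM the change was 0.69 (adjusted p = 0.0733). Gusb, Idua, Galc and Neu1 did not pass, with log2 changes of -0.74, -0.65, -0.20 and 0.32.

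The weaker of these calls rested on single libraries. Gla was lost without any 1 of Acute 1, Acute 2, TIC 5 or TIC 6 (adjusted p from 0.0511 to 0.145), Hexa without Acute 3 (0.0679) and Manba without Acute 2 (0.263). Gaa was lost without Acute 1, Acute 3 or any 1 of TIC 1 to TIC 4 (0.0599 to 0.185). When TIC 5 and TIC 6 alone were set against the 3 Acute libraries, which also have high summed FPKM, the changes of Man2b1 (-1.55, adjusted p = 0.0924) and Fuca1 (-1.36, adjusted p = 0.155) were not called. In that subset 4 lysosomal genes passed, all higher (Gla, Scarb2, Cd63 and Cd68), as did 9.64% of all tested genes. Rescaling ended the calls of Manba and Gaa under all 3 methods (adjusted p from 0.102 to 0.267).

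The sulfatases Arsa and Arsb did not pass in this comparison, nor did 6 of the 7 genes of lipid and sterol handling. Npc1, which exports cholesterol from the lysosomal membrane, had 11.3 to 22.2 (median 16.2) FPKM in TIC cells, against 29.6, 39.4 and 28.5 FPKM in Acute cells (log2 change -0.93 ± 0.23, adjusted p = 0.00263), and the groups did not overlap. At equal summed FPKM the Npc1 change was -0.49 (adjusted p = 0.146). Its soluble partner Npc2 had 386 to 1309 (median 505) FPKM in TIC cells, against 1204, 705 and 2537 FPKM in Acute cells (log2 change -1.05 ± 0.43, adjusted p = 0.0527), with Acute 3 far above every other library. Psap, the saposin precursor, had 675 to 1541 (median 1109.8) FPKM in TIC cells, against 552, 919 and 995 FPKM in Acute cells (log2 change 0.35 ± 0.29, adjusted p = 0.345). Lipa, the acid lipase that frees cholesterol from its esters, had 113 to 231 (median 149.7) FPKM in TIC cells, against 165, 136 and 112 FPKM in Acute cells (log2 change 0.22 ± 0.26, adjusted p = 0.515). Psap and Lipa overlapped between the groups. Gm2a, Smpd1 and Asah1 did not pass, with log2 changes of 0.80, -0.38 and -0.44.

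Membrane proteins were called in both directions, with 3 of 8 higher and 2 lower, when 14.7% of all tested genes were higher and 27.7% lower. Cd68, the macrophage glycoprotein macrosialin, had 605 to 1678 (median 675) FPKM in TIC cells, against 167, 162 and 148 FPKM in Acute cells (log2 change 2.46 ± 0.35, adjusted p = 7.01e-06). Cd63, a tetraspanin of late endosomes and exosomes, had 1337 to 4476 (median 1571) FPKM in TIC cells, against 745, 424 and 378 FPKM in Acute cells (log2 change 2.10 ± 0.41, adjusted p = 0.000284). Scarb2, which encodes LIMP-2, a membrane protein that also sorts an enzyme to lysosomes, had 44.9 to 64.7 (median 53.0) FPKM in TIC cells, against 14.4, 14.1 and 10.9 FPKM in Acute cells (log2 change 1.94 ± 0.24, adjusted p = 8.22e-07). The groups did not overlap for any of the 3, and each stayed called in all 24 alternative analyses of this comparison. Lamp2, which also serves chaperone-mediated autophagy, had 252 to 452 (median 296) FPKM in TIC cells, against 1788, 933 and 887 FPKM in Acute cells (log2 change -1.81 ± 0.28, adjusted p = 1.63e-05), with Acute 1 the highest and no overlap. Lamp1 had 289 to 638 (median 418) FPKM in TIC cells, against 738, 704 and 1122 FPKM in Acute cells (log2 change -0.99 ± 0.30, adjusted p = 0.0107). The groups did not overlap, but the call was lost without Acute 3 (adjusted p = 0.0614). Mcoln1, the calcium channel TRPML1, had 16.2 to 58.3 (median 25.7) FPKM in TIC cells, against 16.8, 29.0 and 25.6 FPKM in Acute cells (log2 change 0.29 ± 0.35, adjusted p = 0.529). Mcoln1 overlapped between the groups. Laptm5, a lysosomal membrane protein, and Cln3, the protein lost in juvenile Batten disease, did not pass either, with log2 changes of -0.69 and 0.03.

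Progranulin (Grn), a secreted and lysosomal protein linked to frontotemporal dementia, had 1394 to 2152 (median 1467) FPKM in TIC cells, against 499, 476 and 1313 FPKM in Acute cells (log2 change 1.27 ± 0.29, adjusted p = 0.00136). The groups did not overlap, but Acute 3 stood near the TIC libraries, and when only libraries with few zeros were used, which leaves Acute 3 alone in its group, the change was 0.51 (adjusted p = 0.402). Ppt1, which removes palmitate from proteins, had 105 to 184 (median 152) FPKM in TIC cells, against 343, 245 and 404 FPKM in Acute cells (log2 change -1.16 ± 0.26, adjusted p = 0.000983), without overlap. The peptidase gene Tpp1 did not pass (log2 change -0.34). Tfeb itself was low, with 1.63 to 10.3 (median 3.95) FPKM in TIC cells, against 4.66, 17.6 and 9.57 FPKM in Acute cells (log2 change -0.89 ± 0.46, adjusted p = 0.119).

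The other lysosomal genes that did not pass in this comparison covered a wide range of levels. Gusb, the beta-glucuronidase, had 24.8 to 57.9 FPKM in TIC cells and 51.3 to 86.2 FPKM in Acute cells, and Neu1, the sialidase, 36.9 to 122 FPKM in TIC cells and 48.8 to 58.7 FPKM in Acute cells. Galc, which degrades the myelin lipid galactosylceramide, had 12.2 to 34.5 FPKM in TIC cells and 8.22 to 52.7 FPKM in Acute cells. All 3 ranges overlapped. Arsa, the sulfatase of the myelin lipid sulfatide, had 6.86 to 15.2 FPKM in TIC cells and 3.40 to 36.4 FPKM in Acute cells, with Acute 3 high and Acute 2 low. Gm2a, the activator that presents the GM2 ganglioside, had 159 to 415 FPKM in TIC cells and 31.6 to 354 FPKM in Acute cells, where Acute 1 was the lowest of the 22 libraries. Smpd1, the acid sphingomyelinase, had 22.4 to 38.5 FPKM in TIC cells and 32.0 to 43.3 FPKM in Acute cells, and Tpp1 82.8 to 197 FPKM in TIC cells and 101 to 272 FPKM in Acute cells. Laptm5 had 494 to 976 FPKM in TIC cells and 756 to 1682 FPKM in Acute cells, and Cln3 20.998 to 69.4 FPKM in TIC cells and 31.4 to 45.3 FPKM in Acute cells. For these 4 genes too the groups overlapped.

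**Figure D2:**
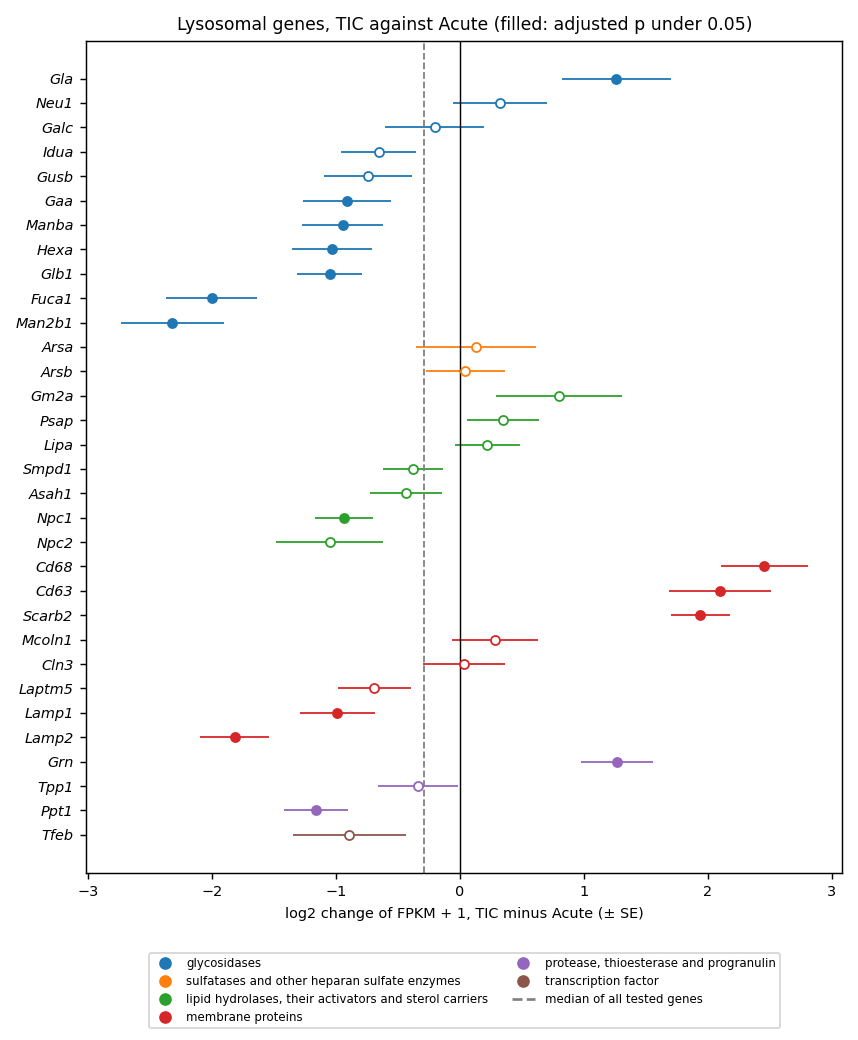
Log2 change (TIC minus Acute, on log2(FPKM + 1)) of the 32 lysosomal genes with its SE, coloured by role; filled points passed an adjusted p under 0.05 and the dashed line is the median of all tested genes at -0.29. Cd68 at 2.46, Cd63 at 2.10 and Scarb2 at 1.94 lie farthest to the right and Man2b1 at -2.32 and Fuca1 at -2.0 farthest to the left.

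Psap and Arsb rose within 1 day of serum relative to serum-free culture, and Cd63, Npc1, Scarb2, Lipa, Gla and Idua fell by 3 or 5 days. After 1 day 2 of the 32 genes had risen and 0 had fallen relative to TIC (6.25%, when 2.92% of all tested genes passed, 1.22% higher and 1.7% lower), and 2 genes were lower at an unadjusted p under 0.05. After 3 days 2 were higher and 2 lower (12.5%, when 10.1% of all tested genes passed, 4.13% higher and 5.95% lower). After 5 days 1 was higher and 6 lower (21.9%, when 12.9% of all tested genes passed, 4.81% higher and 8.1% lower). The median log2 change of the lysosomal genes was 0.11, -0.41 and -0.30 at 1, 3 and 5 days, and that of all tested genes -0.01, -0.06 and -0.08. Rescaling changed the split at 3 days to 2 higher and 8 lower (median-of-ratios), 2 and 6 (quantile) or 3 and 4 (equal summed FPKM), and at 5 days to 2 and 7, 2 and 8, or 3 and 6. The 3 comparisons share the TIC samples.

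Psap gave the largest rise. It had 675 to 1541 (median 1109.8) FPKM in TIC cells, 2699, 2887, 3226, 3450.1 and 1631 FPKM in FCS 1d cells, 2145, 2585, 2248 and 2633 FPKM in FCS 3d cells and 1635, 2315, 2022 and 2537 FPKM in FCS 5d cells. Every FCS library lay above every TIC library, and the lowest values within their groups were in TIC 5, TIC 6 and FCS 1d 5, the libraries in which most lysosomal genes were highest. The log2 change from TIC was 1.41 ± 0.25 at 1 day, 1.24 ± 0.26 at 3 days and 1.05 ± 0.26 at 5 days (adjusted p = 0.00135, 0.00317 and 0.00884). Without TIC 5, TIC 6 and FCS 1d 5 these changes were 1.32, 0.97 and 0.78, all still called.

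Arsb, the sulfatase of dermatan sulfate, had 25.8 to 64.8 (median 48.2) FPKM in TIC cells, 109.7, 86.8, 82.7, 92.6 and 131 FPKM in FCS 1d cells, 83.9, 129, 111 and 101 FPKM in FCS 3d cells and 31.6, 83.1, 52.6 and 62.6 FPKM in FCS 5d cells. FCS 1d and FCS 3d did not overlap with TIC, and FCS 5d did. Its log2 change was 1.12 ± 0.27 at 1 day, 1.20 ± 0.29 at 3 days and 0.26 ± 0.29 at 5 days (adjusted p = 0.0194, 0.00848 and 0.651). At 1 day the call was lost without TIC 3 (adjusted p = 0.0537) or without FCS 1d 1 (0.0558). The other sulfatase, Arsa, was not called at any time.

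**Figure D3:**
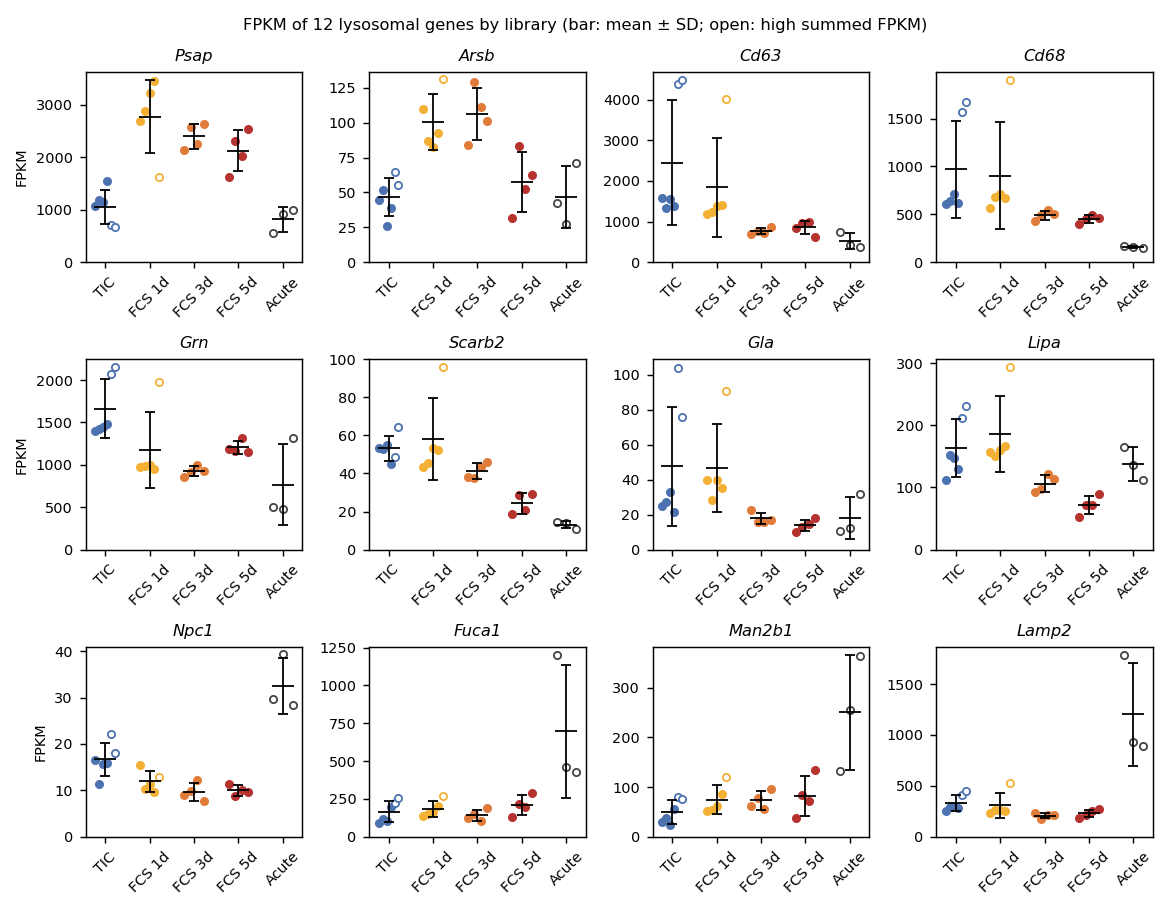
FPKM of 12 lysosomal genes in every library by group; points are libraries, open where summed FPKM was high, and bars give the mean ± SD. All FCS points for Psap lie above the TIC points, and Scarb2 and Lipa are lowest in FCS 5d among the cultured groups.

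Lower transcripts after 3 and 5 days came from genes of several roles. Among membrane proteins, Cd63 had 1337 to 4476 (median 1571) FPKM in TIC cells, 1189.6, 1229, 1382, 1402 and 4028 FPKM in FCS 1d cells, 706, 779, 717 and 866 FPKM in FCS 3d cells and 853, 970.5, 990.2 and 627 FPKM in FCS 5d cells. FCS 3d and FCS 5d lay below every TIC library, and the log2 change was -1.47 ± 0.38 at 3 days and -1.32 ± 0.38 at 5 days (adjusted p = 0.013 and 0.0212). TIC 5 and TIC 6 are high for this gene, and without the 3 cultured libraries of high summed FPKM the changes were -0.93 and -0.79, both still called. The 5-day call was lost without FCS 5d 4 (adjusted p = 0.0873). Scarb2 had 44.9 to 64.7 (median 53.0) FPKM in TIC cells, 43.3, 45.7, 53.4, 52.2 and 95.8 FPKM in FCS 1d cells, 38.0, 37.9, 43.6 and 45.8 FPKM in FCS 3d cells and 18.7, 28.7, 20.7 and 29.1 FPKM in FCS 5d cells. FCS 5d lay below all other cultured libraries. It fell at 5 days (log2 change -1.12 ± 0.22, adjusted p = 0.00111) and stayed called in all 25 alternative analyses. Cd68 had 567, 677, 717, 667 and 1899 FPKM in FCS 1d cells, 426, 489, 542 and 507 FPKM in FCS 3d cells and 397, 453, 490.5 and 466 FPKM in FCS 5d cells. The FCS 3d and FCS 5d libraries lay below every TIC library (605 to 1678 FPKM), but the change was not called (5 days, log2 change -0.96 ± 0.32, adjusted p = 0.0515), though it was in 12 of 25 alternative analyses. Mcoln1 had 18.4, 16.3, 25.9, 23.3 and 45.5 FPKM in FCS 1d cells, 10.4, 15.9, 18.8 and 17.6 FPKM in FCS 3d cells and 12.6, 15.9, 15.7 and 14.1 FPKM in FCS 5d cells, and did not pass either (5 days, log2 change -0.93 ± 0.32, adjusted p = 0.0541).

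Among genes of lipid and sterol handling, Lipa had 113 to 231 (median 149.7) FPKM in TIC cells, 157, 150.4, 159.8, 166 and 294 FPKM in FCS 1d cells, 92.5, 96.7, 122 and 114 FPKM in FCS 3d cells and 53.1, 71.8, 70.9 and 89.1 FPKM in FCS 5d cells. All FCS 5d libraries lay below all TIC libraries (log2 change -1.17 ± 0.24, adjusted p = 0.00167). Npc1 had 11.3 to 22.2 (median 16.2) FPKM in TIC cells, 15.4, 10.3, 11.4, 9.74 and 12.8 FPKM in FCS 1d cells, 9.05, 9.79, 12.2 and 7.64 FPKM in FCS 3d cells and 11.4, 8.78, 10.1 and 9.59 FPKM in FCS 5d cells. FCS 3d 3 and FCS 5d 1 lay above the lowest TIC library, TIC 2, and the other libraries of both groups below it. The fall passed at 3 days (log2 change -0.72 ± 0.21, adjusted p = 0.0317) and 5 days (log2 change -0.67 ± 0.21, adjusted p = 0.0403), but at 5 days it kept the call in 7 of 25 alternative analyses, and at 3 days in 13 of 25. It was lost at 3 days without any 1 of TIC 5, TIC 6, FCS 3d 1, FCS 3d 2 or FCS 3d 4 (adjusted p from 0.059 to 0.125), and at 5 days without any 1 of the 4 FCS 5d libraries or of the TIC libraries other than TIC 2 (0.0503 to 0.123). Npc2 had 439, 443, 612, 779 and 1529.7 FPKM in FCS 1d cells and 407, 442, 489.9 and 531 FPKM in FCS 3d cells. It, Gm2a, Smpd1 and Asah1 were not called at any time against TIC.

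Among glycosidases, Gla had 21.3 to 104 (median 30.2) FPKM in TIC cells, 40.0, 28.1, 39.5, 35.3 and 90.9 FPKM in FCS 1d cells, 22.6, 16.0, 15.8 and 16.7 FPKM in FCS 3d cells and 10.1, 13.0, 14.6 and 17.8 FPKM in FCS 5d cells. FCS 5d lay below every TIC library (log2 change -1.47 ± 0.40, adjusted p = 0.0162). The change was -0.90 (adjusted p = 0.0428) without the 3 cultured libraries of high summed FPKM, and the call was lost without FCS 5d 1 (0.0567). Idua, the iduronidase of heparan and dermatan sulfate, fell at 5 days (log2 change -0.88 ± 0.28, adjusted p = 0.0374), with 12.7, 17.9, 18.5 and 19.5 FPKM in FCS 5d cells, against 21.5 to 52.3 (median 31.3) FPKM in TIC cells. The groups did not overlap, and Idua kept the call in 13 of 25 alternative analyses. The call was lost without any 1 of the 4 FCS 5d libraries or TIC 2, TIC 5 or TIC 6 (0.0581 to 0.125). No other glycosidase was called against TIC.

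Progranulin and the LAMP genes were not called against TIC at any time in serum. Grn had 972, 989, 992, 955 and 1972 FPKM in FCS 1d cells, 851, 915, 999.6 and 932 FPKM in FCS 3d cells and 1191, 1162, 1315 and 1156 FPKM in FCS 5d cells, and its adjusted p at 3 days was 0.052 (log2 change -0.82 ± 0.27). The TIC libraries, given above, lay above all of these but FCS 1d 5. At 3 days the Grn change was called in 6 of 25 alternative analyses. Lamp1 had 307, 434, 391, 388 and 870.0 FPKM in FCS 1d cells, 267, 369, 384 and 279 FPKM in FCS 3d cells and 359.9, 496, 483 and 475 FPKM in FCS 5d cells. Lamp2 had 234, 264, 260.2, 253 and 533 FPKM in FCS 1d cells, 232, 179, 212 and 209.9 FPKM in FCS 3d cells and 188, 211, 248.77 and 272 FPKM in FCS 5d cells. Lamp1 overlapped with TIC at all 3 times and Lamp2 at 1 and 5 days, while all 4 FCS 3d libraries were below every TIC library for Lamp2 (3 days, log2 change -0.64 ± 0.25, adjusted p = 0.125). Tfeb had 7.58, 3.92, 4.94, 3.91 and 10.0 FPKM in FCS 1d cells, 0.79, 2.04, 2.99 and 3.89 FPKM in FCS 3d cells and 1.92, 4.57, 3.77 and 4.28 FPKM in FCS 5d cells, overlapping with TIC each time.

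**Figure D4:**
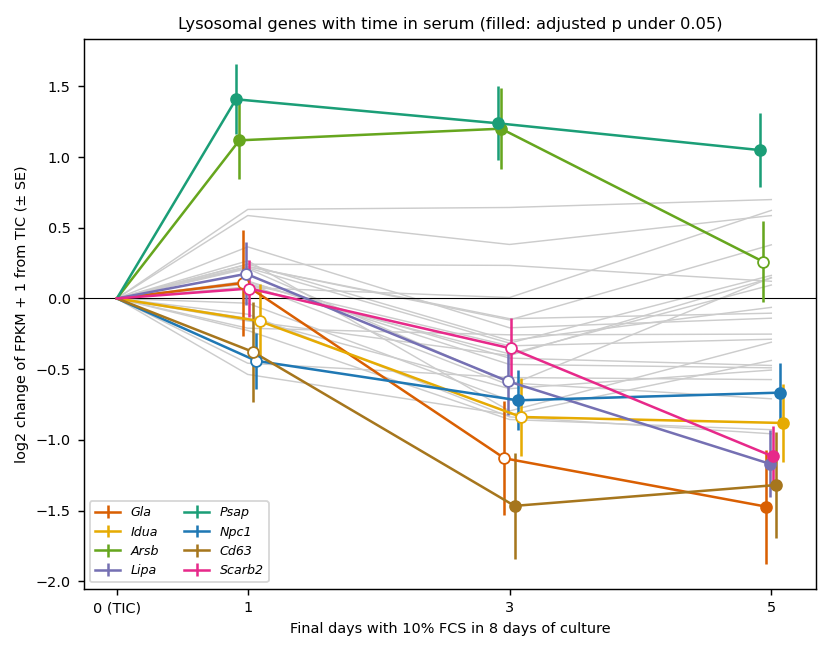
Log2 change from TIC (on log2(FPKM + 1), ± SE) after 1, 3 and 5 final days with 10% serum for the 8 lysosomal genes called at any time (colours; filled where adjusted p was under 0.05) and the other 24 (grey). Psap stays above 1, Arsb returns toward 0 at 5 days, and Scarb2 and Lipa fall between 3 and 5 days.

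The difference between 5 days and 1 day of serum was tested directly. Of the 32 genes 3 were lower and 0 higher in FCS 5d than in FCS 1d cells (9.38%, when 5.38% of all tested genes passed, 1.92% higher and 3.46% lower), with 9 lower and 0 higher at an unadjusted p under 0.05. Lipa (log2 change -1.34 ± 0.25, adjusted p = 0.00135), Scarb2 (log2 change -1.19 ± 0.23, adjusted p = 0.00178) and Gla (log2 change -1.58 ± 0.42, adjusted p = 0.0256) were the 3, and for each all 4 FCS 5d libraries lay below all 5 FCS 1d libraries. FCS 1d 5 is the highest library for all 3, and without the cultured libraries of high summed FPKM the changes were -1.16, -0.99 and -1.31, all still called. The Gla call was lost without FCS 1d 5 (adjusted p = 0.0813), FCS 5d 1 (0.0858), FCS 5d 2 (0.0726) or FCS 5d 3 (0.0553). Psap (log2 change -0.36 ± 0.27, adjusted p = 0.58) and Arsb (log2 change -0.86 ± 0.30, adjusted p = 0.108) did not pass. At equal summed FPKM the split was 1 higher and 4 lower.

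Cells with 5 days of serum, compared with Acute cells, had lower Lamp2, Fuca1, Man2b1 and Npc1 and higher Cd68 and Psap. In FCS 5d relative to Acute cells 4 genes were higher and 13 lower (53.1%, when 39.8% of all tested genes passed, 12% higher and 27.9% lower), with a median log2 change of -0.64 for the lysosomal genes and -0.38 for all tested genes. After median-of-ratios rescaling the split was 5 and 9, after quantile normalization 6 and 8, and at equal summed FPKM 8 and 7. In these 3 settings the median of all tested genes was -0.0149, 0.0117 and 0.163. With a term for summed FPKM the split was 8 higher and 2 lower, and the median of the lysosomal genes was 0.38. All tested genes turned the same way there, to 1547 higher and 1220 lower (28.6% called), with a median of 0.0882. The term was estimated within TIC and FCS 1d, the only groups with libraries of both high and low summed FPKM. Every Acute library is high and every FCS 5d library low, so this fit is an extrapolation to Acute cells. Lamp2 was lower (log2 change -2.32 ± 0.30, adjusted p = 2.37e-06), as were Npc1 (log2 change -1.60 ± 0.25, adjusted p = 2.94e-05), Fuca1 (log2 change -1.62 ± 0.39) and Man2b1 (-1.62 ± 0.45), and for Lamp2 and Npc1 the call held in all 20 alternative analyses. Fuca1 had 132, 215, 194 and 290.1 FPKM and Man2b1 37.5, 84.5, 72.1 and 134.01 FPKM in FCS 5d cells; the Man2b1 groups overlapped in 1 FCS 5d library, which lay just above Acute 1, and the Fuca1 groups did not overlap. Falls were also called for Idua (-1.53 ± 0.33), Npc2 (-1.52 ± 0.46), Ppt1 (-1.30 ± 0.28), Laptm5 (-1.26 ± 0.32), Manba (-1.23 ± 0.35), Asah1 (-1.15 ± 0.31), Lipa (-0.95 ± 0.28), Glb1 (-0.91 ± 0.28) and Lamp1 (-0.89 ± 0.32) (log2 changes). The genes that rose were Cd68 (log2 change 1.5 ± 0.38, adjusted p = 0.00344), Psap (log2 change 1.4 ± 0.31, adjusted p = 0.00115), Grn (log2 change 0.83 ± 0.32, adjusted p = 0.0404) and Scarb2 (log2 change 0.82 ± 0.26, adjusted p = 0.0141). Npc2 had 333, 459, 441 and 599.9 FPKM in FCS 5d cells, against 1204, 705 and 2537 FPKM in Acute cells, and Asah1, the acid ceramidase, 84.8, 96.2, 97.1 and 102 FPKM in FCS 5d cells, against 203, 286 and 162 FPKM in Acute cells. Calls lost without a single library were Npc2 (adjusted p = 0.0902) and Lamp1 (0.123) without Acute 3, Lamp1 without FCS 5d 1 (0.0844), Manba without Acute 2 (0.0869), Lipa (0.0529) and Glb1 (0.0509) without Acute 1, and Grn without any of Acute 1, Acute 2 or the 4 FCS 5d libraries (0.0591 to 0.198).

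Other lysosomal lists were examined beside the 32 genes. Of 18 genes of the V-ATPase, the proton pump that acidifies lysosomes, 8 were higher and 1 lower in TIC than in Acute cells, with a median log2 change of 0.94, when 14.7% of all tested genes were higher and 27.7% lower. At equal summed FPKM it was 12 and 1, when 2168 of the 9691 tested genes were higher and 1696 lower. Without the cultured libraries of high summed FPKM it was 8 and 4, when 1235 of the 9691 were higher and 3298 lower. Atp6v0a1 had 33.2 to 44.5 (median 40.8) FPKM in TIC cells, against 1.32, 6.28 and 7.84 FPKM in Acute cells (log2 change 2.93 ± 0.32, adjusted p = 1.17e-07). The catalytic subunit gene Atp6v1a also rose (log2 change 2.41 ± 0.27, adjusted p = 2.18e-07), and Atp6ap1 fell (log2 change -1.10 ± 0.30, adjusted p = 0.00553). Atp6v0d2, a subunit best known from osteoclasts, was listed at 0 in all 3 Acute libraries and had 11.3 to 177 (median 30.6) FPKM in TIC cells. In serum the pump genes that passed were lower than in TIC cells, with 0 higher and 1 lower at 1 day, 0 and 5 at 3 days and 0 and 6 at 5 days, or 0 and 2 at 3 days and 0 and 3 at 5 days without the cultured libraries of high summed FPKM. Of all tested genes 1.7%, 5.95% and 8.1% were lower at the 3 times. Without the cultured libraries of high summed FPKM 405 of the 9691 tested genes were lower at 3 days and 583 at 5 days. Atp6v0d2 had 13.2, 12.2, 8.94, 11.7 and 131 FPKM in FCS 1d cells, 2.75, 0.71, 0 and 1.59 FPKM in FCS 3d cells and 0, 0.29, 1.31 and 0 FPKM in FCS 5d cells (log2 change from TIC at 5 days -5.03 ± 0.71, adjusted p = 2.98e-05). Atp6v1e1 fell at all 3 times (log2 change -0.88 ± 0.23, -1.57 ± 0.24 and -1.43 ± 0.24, adjusted p = 0.0356, 0.000188 and 0.000308).

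Soluble enzymes outside the 32 genes, of which 23 were tested, gave 1 rise and 8 falls in TIC relative to Acute cells, a share no larger than the 42.4% of all tested genes that passed. The split was 2 and 7 at equal summed FPKM (39.9% of all tested genes called). It was 1 and 14 without the cultured libraries of high summed FPKM (46.8% called). Pld4, a lysosomal nuclease, had 97.7 to 295 (median 147) FPKM in TIC cells, against 2390.4, 1876 and 1695 FPKM in Acute cells (log2 change -3.69 ± 0.31, adjusted p = 1.96e-09). The ribonuclease gene Rnaset2 also fell (log2 change -2.89 ± 0.37, adjusted p = 1.49e-06), while Pld3, which encodes another nuclease, rose (log2 change 2.99 ± 0.38, adjusted p = 1.54e-06). In serum 2 of the 23 rose at 1 day and 0 fell, 3 rose and 0 fell at 3 days, and 3 rose and 1 fell at 5 days. Among all tested genes 2.92%, 10.1% and 12.9% passed at these times. Creg1, a lysosomal glycoprotein, rose at all 3 times (log2 change 1.17 ± 0.29, 1.14 ± 0.31 and 1.16 ± 0.31, adjusted p = 0.0209, 0.0171 and 0.0125). Acp5, the tartrate-resistant acid phosphatase, fell at 5 days (log2 change -1.94 ± 0.57, adjusted p = 0.025).

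Of 19 other membrane proteins 3 were higher and 4 lower in TIC than in Acute cells, a share below the 42.4% of all tested genes, and 5 and 2 at equal summed FPKM. Slc29a3, a nucleoside transporter, fell most (log2 change -4.26 ± 0.35, adjusted p = 1.49e-09), with 17.3 to 59.8 (median 23.8) FPKM in TIC cells, against 517, 528 and 720.0 FPKM in Acute cells. Clcn7, the chloride-proton exchanger, rose (log2 change 2.65 ± 0.57, adjusted p = 0.000729). In serum 0 of the 19 were called at 1 day, with 2 higher and 1 lower at an unadjusted p under 0.05, 0 rose and 2 fell at 3 days, and 1 rose and 1 fell at 5 days. The split at 3 days depended on the libraries of high summed FPKM, with 2 higher and 0 lower without the cultured ones or with a term for summed FPKM, and 2 and 1 at equal summed FPKM. In the main analysis 2.92%, 10.1% and 12.9% of all tested genes passed at 1, 3 and 5 days. At 5 days Slc15a3, a transporter of peptides and histidine, was the gene that fell (log2 change -1.27 ± 0.25, adjusted p = 0.00108) and the cation channel gene Tpcn1 the one that rose (log2 change 0.74 ± 0.21, adjusted p = 0.0191).

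**Figure D5:**
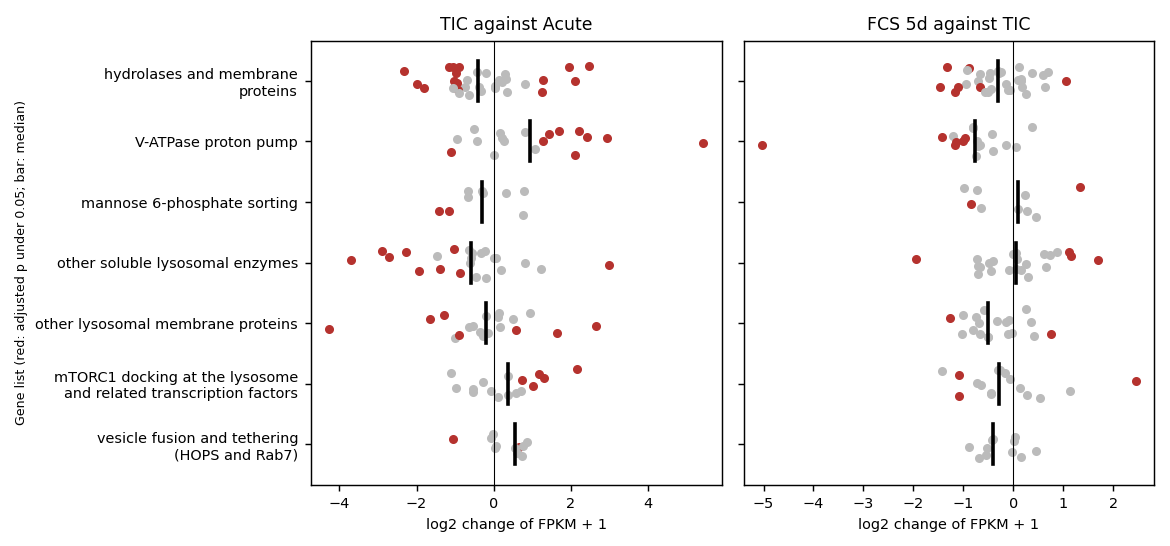
Log2 change of each tested gene in the 32-gene set and 6 other lysosomal lists for TIC against Acute (left) and FCS 5d against TIC (right), on log2(FPKM + 1); red points passed an adjusted p under 0.05 and bars are list medians. The V-ATPase median is 0.94 on the left and -0.77 on the right; its outermost point on both sides is Atp6v0d2, listed at 0 in Acute, so its left value is no fold.

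Genes whose promoters hold CACGTG were found on both sides of the comparison of TIC with Acute cells. Of the 8, 1 was higher (Cd63) and 3 were lower (Glb1, Gaa and Lamp1), with a median log2 change of -0.43 and a range of -1.05 to 2.10. Of the 18 without it, 4 were higher and 5 lower, with a median of -0.53 and a range of -2.32 to 2.46. Among all tested genes 42.4% passed in this comparison (14.7% higher, 27.7% lower). In FCS 5d relative to TIC 0 of the 8 rose and 2 fell (Cd63 and Idua), and 0 of the 18 rose and 4 fell. Psap, the only lysosomal gene called higher there, had no matched promoter and so is in neither set. There 12.9% of all tested genes passed (4.81% higher, 8.1% lower). The 4 with TCACGTGA had a median log2 change of -0.08 in TIC relative to Acute cells and -0.29 in FCS 5d relative to TIC. No difference between promoters with and without the motif was tested.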

How the data were processed

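RNA was sequenced from 22 samples in 5 groups. Per the labels' protocols, poly-A libraries were made by SmartSeq2 with Nextera XT tagmentation. The values analysed are FPKM for 17284 gene symbols, which the authors deposited as 1 table. HISAT2 2.0.3, Cufflinks 2.2.1 and build rn6 appear, per the submitters' processing notes, with no role or setting, and the annotation is not given in the sources used here. FPKM hold no read totals, so depth and counting error are unknown, and an exact 0 may be a failed estimate.

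Here, log2(FPKM + 1) of 9691 genes (filter: 1 FPKM or more in 3 or more samples) was fitted in limma 3.58.1 (R 4.3.3) as 5 group means over all samples, with trended, robust moderated variances. With a pseudocount of 1, changes of low genes are understated. The 6 contrasts were tested two-sided, with Benjamini-Hochberg adjustment over all tested genes and a threshold of 0.05. The fit was tested on simulated data. Values in every library (for TIC, the lowest, median and highest) are given for the called lysosomal genes with the largest changes (up to 4 higher and 4 lower a contrast) and for Lamp1, Lamp2, Cd68, Cd63, Grn, Psap, Tfeb, Npc1, Npc2, Lipa and Mcoln1. Genes of other lists are named among the 3 called with the largest change in each direction. The genes and lists were chosen with earlier results of these data known.

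Alternatives were pseudocounts, filters, rescalings, the library divisions as terms or subsets, a replicate block and leaving out each library. Leaving out the cultured libraries of high summed FPKM, and rescaling to equal summed FPKM, were chosen after seeing the data. Some genes of the other lists are not reported here. Promoters came from RefSeq GRCr8.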

Additional observations from a re-analysis of the deposited data

Results flagged for a closer look

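In 13 of the 128 sets of one gene in one group of 4 to 6 samples, a single library stood apart from the rest of its group by Dixon's criterion on the log2 scale, which by chance marks about 1 in 20 sets. FCS 1d 5 was the high library in 10 of them, with Hexa at 238 FPKM, Idua at 46.9, Lipa at 294, Gm2a at 444, Lamp2 at 533, Cd63 at 4028, Cd68 at 1899, Scarb2 at 95.8, Laptm5 at 831 and Grn at 1972 FPKM. That library is 1 of the 6 with high summed FPKM. In FCS 3d 1, Gla stood apart at 22.6 FPKM and Glb1 at 43.9 FPKM, and in FCS 5d 1 Lamp1 stood apart at 359.9 FPKM. The response to serum differed between 5 days and 1 day in the direct test of FCS 5d against FCS 1d for Gla (log2 change -1.58), Lipa (-1.34) and Scarb2 (-1.19).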

How the results depend on the processing

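Of 48 gene results called among the 32 lysosomal genes over the 6 comparisons, 6 kept the call in every alternative run, namely Scarb2, Cd63 and Cd68 in TIC against Acute, Scarb2 in FCS 5d against TIC, and Lamp2 and Npc1 in FCS 5d against Acute. Over the 32 genes and all alternatives 4284 values stayed on their side of the threshold, 176 lost a call, 173 gained one and 7 reversed in sign where called; signs of values called in neither analysis were not counted. The count for TIC against Acute (15) was 6 with libraries of few zeros and 4 with those of high summed FPKM, and 14 to 17 with any 1 library left out. That for FCS 1d against TIC (2) was 0 with few zeros (4 at an unadjusted p under 0.05) and 0 with high summed FPKM (0 unadjusted; FCS 1d 5 alone against TIC 5 and TIC 6, with 0 of 9691 genes called, so this says nothing of stability), 1 with many zeros, 4 with low summed FPKM, and 1 to 2 with 1 library left out, 1 of them without TIC 3 or FCS 1d 1. That for FCS 3d against TIC (4) was 10 after median-of-ratios rescaling, 8 after quantile normalization, 7 at equal summed FPKM, 8 with a term for zeros, 9 with low summed FPKM and 0 with many zeros (5 unadjusted), and 3 to 5 with 1 library left out. With many zeros 1.93% of all tested genes passed there, and for FCS 1d against TIC 0.557% passed with many zeros and 1.33% with few. The count for FCS 5d against TIC (7) was 4 to 8 with 1 library left out, 4 without FCS 5d 1 or FCS 5d 4. With many zeros, FCS 5d 1 is alone in its group. The median log2 change of the 32 genes was then -0.30 against TIC (all tested genes -0.05) and -0.46 against FCS 1d (all tested genes -0.11). The count for FCS 5d against FCS 1d (3) was 5 after median-of-ratios rescaling, 6 after quantile normalization, 5 at equal summed FPKM, 7 with a term for summed FPKM, 5 with one for zeros, 8 with low summed FPKM, 5 without the cultured libraries of high summed FPKM, and 2 to 4 with 1 library left out. That for FCS 5d against Acute (17) was 10 with a term for summed FPKM, 9 with few zeros, and 15 to 16 with 1 library left out. The share of FPKM with 1 library left out was 2.07 to 2.09% in TIC, 2.27 to 2.33% in FCS 1d, 1.86 to 1.92% in FCS 3d, 1.94 to 2.02% in FCS 5d and 1.42 to 1.62% in Acute cells. Among results called in the main analysis or the alternative, signs reversed with few zeros in TIC against Acute for Arsa (-1.51) and in FCS 5d against Acute for Arsa (-1.53), Grn (-0.12), Galns (-0.49), Clcn7 (-0.22) and Atp6v1c1 (0.26), and, in FCS 5d against Acute once the fit held a term for summed FPKM, for Hexa (0.75), Gla (1.36), Neu1 (1.14), Lamp1 (0.0159), Atp6v0b (0.0555), Ostm1 (0.0084) and Lamtor2 (0.29). The term for summed FPKM was estimated within TIC and FCS 1d, the only groups with both kinds of library. Its use for FCS 5d against Acute is an extrapolation. The subset with few zeros leaves Acute 3 alone in its group and that with many zeros FCS 5d 1, each assumed to vary like the other groups. Beyond having fewer samples, the cause of the reversals was not tested. Fits within low summed FPKM (against Acute) or within high summed FPKM (FCS 3d and FCS 5d) were not run because a group has no such library. With the replicate number as a block the counts, in the order of comparisons above, were 24, 3, 4, 8, 7 and 24. Deviations of same-numbered samples correlated at 0.0971 to 0.477 for FCS 1d with TIC (4 of 5 best with their own number), -0.0482 to 0.318 for FCS 3d with TIC (3 of 4), -0.0419 to 0.229 for FCS 5d with TIC (3 of 4), -0.0245 to 0.269 for FCS 5d with FCS 1d (3 of 4), -0.0896 to 0.147 for TIC with Acute (1 of 3) and -0.103 to 0.0377 for FCS 5d with Acute (1 of 3). No comparison had every pair above 0.1, though FCS 1d with TIC missed this by 1 pair, at 0.0971. The labels state no pairs, and the numbers were not taken as pairs. The matches among cultured groups are a hint from the data, not the design, and shared preparations were not excluded. Depth is unknown, so counting error could not be set beside any value.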

Other observations

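Genes that deliver enzymes to lysosomes, dock signalling complexes there or fuse vesicles were examined too. In TIC relative to Acute cells 42.4% of all tested genes passed, and each of these lists had a smaller share called. In FCS 5d relative to TIC 12.9% of all tested genes passed (4.81% higher, 8.1% lower). Of 9 genes of mannose 6-phosphate sorting, 0 were higher and 2 lower in TIC than in Acute cells, M6pr, the cation-dependent receptor (log2 change -1.17 ± 0.26, adjusted p = 0.00104), and the sorting receptor Sort1 (log2 change -1.42 ± 0.27, adjusted p = 0.000184). In FCS 5d relative to TIC the adaptor subunit Ap1b1 rose (log2 change 1.33 ± 0.27, adjusted p = 0.00142) and the other receptor, Igf2r, fell (log2 change -0.84 ± 0.26, adjusted p = 0.0307), a call kept in 10 of 24 alternative analyses. Of 16 genes of mTORC1 docking and related transcription factors, 5 were higher and 0 lower in TIC than in Acute cells, including Rragd (log2 change 2.16 ± 0.49, adjusted p = 0.00119) and Mitf (log2 change 1.29 ± 0.30, adjusted p = 0.0016), when 14.7% of all tested genes were higher and 27.7% lower. Without the cultured libraries of high summed FPKM the split was 4 and 3 (46.8% of all tested genes called), and at equal summed FPKM 7 and 0 (39.9%). In FCS 5d relative to TIC, 1 of the 16 rose and 2 fell, with Mitf lower (log2 change -1.10 ± 0.28, adjusted p = 0.00954) and Tfec, another factor of the same family, higher (log2 change 2.45 ± 0.51, adjusted p = 0.0022). Of 11 genes of vesicle fusion and tethering, Vps11 was higher (log2 change 0.65 ± 0.24, adjusted p = 0.0319) and Vps16 lower (log2 change -1.05 ± 0.31, adjusted p = 0.00932) in TIC than in Acute cells, and 0 were called in FCS 5d relative to TIC, with 0 higher and 1 lower at an unadjusted p under 0.05.

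Psap was lower in the cultured libraries with high summed FPKM, where most lysosomal genes were higher. It averaged 695 FPKM in TIC 5 and TIC 6 and 1240 FPKM in the other 4 TIC libraries, a difference of -0.82 on the log2 scale, and 1630 FPKM in FCS 1d 5 and 3070 FPKM in the other 4 FCS 1d libraries, a difference of -0.90. In TIC cells Manba was also slightly lower there (11.7 FPKM in TIC 5 and TIC 6, 12.7 FPKM in the other 4). The reason was not tested.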
